A study of Mus musculus with 8 samples.

Results

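The genes described here are 39 markers of cell types other than keratinocytes that live in or near the mouse hair follicle, read in RNA of sorted hair follicle stem cells. The rule that chose them uses gene symbols and no values, and it gives 10 leukocyte, 7 melanocyte, 5 endothelial, 6 mesenchymal, 3 smooth muscle, 2 adipocyte and 6 Merkel cell and nerve genes, out of 28792 symbols in the expression tables. All 39 were found in both tables, with 1 row each.

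The series holds 8 samples, of which 4 are RNA sequencing libraries of cells sorted from back skin by flow cytometry, with 1 library per group. The first 2 libraries came from C57BL6/129Sv females of day 99 that carried K15CrePGR and a Rosa-YFP reporter with a floxed stop. K15CrePGR is a Cre recombinase fused to a progesterone receptor domain and driven by the promoter of the bulge keratin gene Krt15. The mice had 1 floxed and 1 normal copy of the β-catenin gene Ctnnb1 (labelled Het), or only floxed ones (labelled cKO). The other 2 libraries came from C57BL6 males of day 24 with 1 Axin2-LacZ reporter allele (Axin2LacZ/+), whose follicles were leaving rest (telogen) for growth (anagen). Bulge cells of these mice were split by the activity of the reporter's enzyme into cells with it (LacZ+) and without it (LacZ-). For the first pair, 1 label names telogen and the design text the start of anagen. The sources used here do not say whether a library pools several mice or which surface markers the RNA sorts used.

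The hair follicle bulge is a keratinocyte compartment, but other cells share its space. Melanocyte stem cells sit among the bulge and hair germ keratinocytes, and Langerhans cells, T cells and Merkel cells lie in the epithelium of the skin. Fibroblasts, the arrector pili muscle, vessels and nerve endings touch the follicle from outside. A sort of bulge keratinocytes should leave most of these cells out, and RNA of their markers is commonly read as a measure of what came along. In bulk RNA, fewer cells of a type and less RNA per cell cannot be told apart.

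Values are FPKM, sequenced fragments divided by transcript length and library total, a level per length that allows genes to be compared within a library. FPKM give no fragment counts, and with 1 library per group no difference below has a replicate check or a test. Differences are given as the log2 of (FPKM + 1) in the first library over that in the second, taken where either library held at least 1 FPKM. This scale understates the change of low genes. A difference of 1 or more, or of -1 or less, is called 2-fold. Ctnnb1, in an interval of 4 genes, stood at 370 FPKM under the cKO label and 251 under the Het label. That gene-level value does not resolve the floxed part and runs opposite to a loss, so the libraries are called by their labels. Axin2, a target gene of β-catenin signalling in an interval of 2 genes, was lower under the cKO label, with 2.12 FPKM against 16.3 under the Het label. Across the 4 libraries 43.7% to 44.9% of all symbols reached 1 FPKM. The keratinocyte keratin genes Krt5 (5272 to 8690 FPKM) and Krt14 (1380 to 2197 FPKM), the integrin gene Itga6 (123 to 185 FPKM) and the bulge marker Cd34 (223 to 752 FPKM) were high in all 4. Itga6 lies in an interval of 4 genes and Cd34 in one of 5, so reads of neighbours can enter. Krt15 stood at 5951 to 7528 FPKM in 3 libraries and is listed at 0 in LacZ- cells, where a failed estimate cannot be told from absence.

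Most of the 39 markers were low, and the highest values were those of the melanocyte genes Mitf and, in the LacZ pair, Dct. Of the 39 genes, 6 (15.4%) reached 1 FPKM in the cKO-labelled library, 6 in the Het-labelled library, 10 (25.6%) in LacZ+ cells and 6 in LacZ- cells. In all, 11 genes reached 1 FPKM in any library, and 5 reached it in all 4: Cd68, Mitf, Vim, Thy1 and Tagln. Another 25 stayed under 1 FPKM throughout but above 0 in at least 1 library, and 3 are listed at 0 in all 4. The median over the 39 genes was 0.102 FPKM in the cKO-labelled library, 0.0758 in the Het-labelled, 0.239 in LacZ+ and 0.0830 in LacZ- cells. Only 4 genes reached 5 FPKM in any library, and these were Mitf, Dct, Vim and Cd68.

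**Figure D1:**
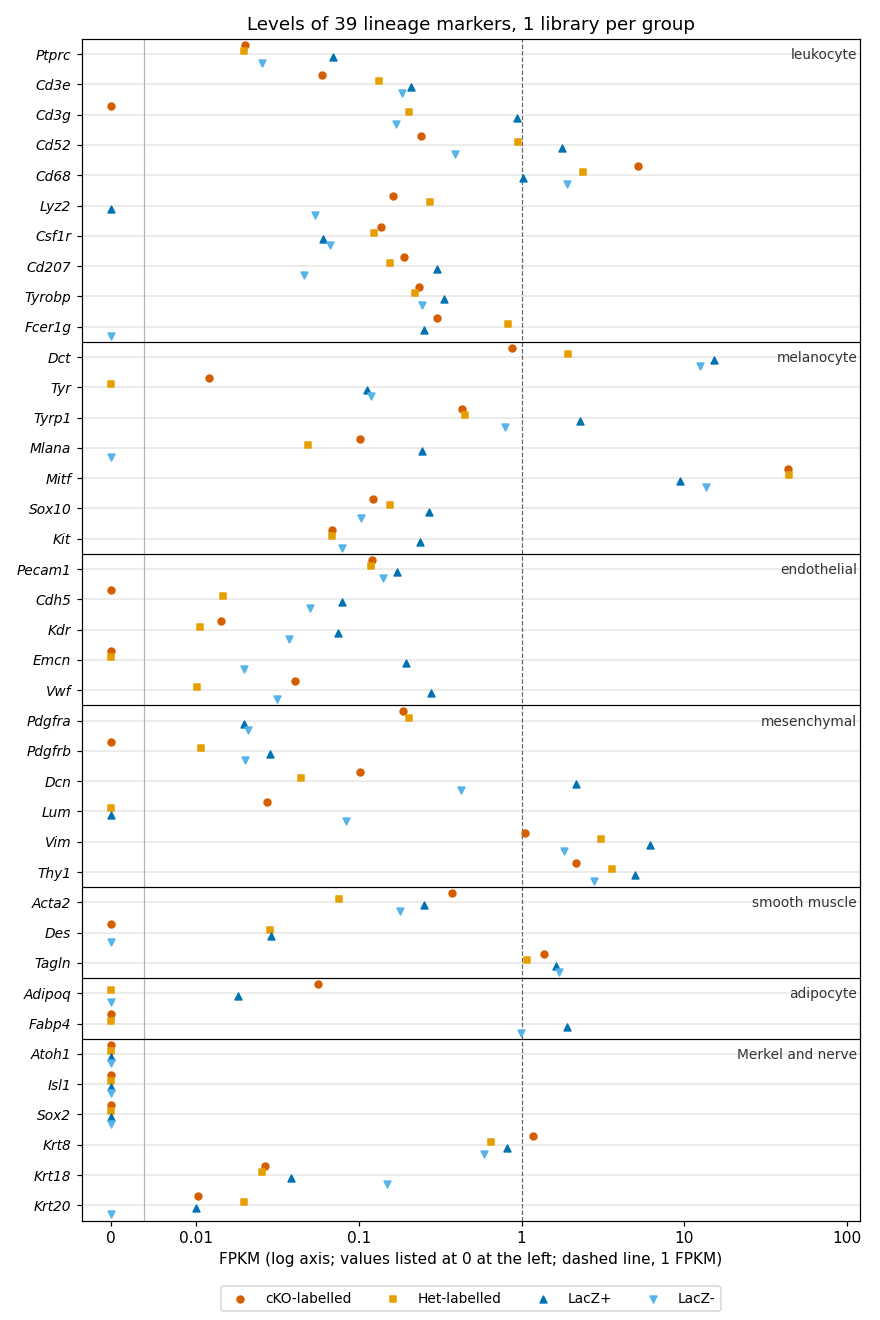
FPKM of each of the 39 markers (rows, grouped by lineage) in the 4 libraries, on a log axis with values listed at 0 placed at the left; each point is 1 library. Most points lie left of the dashed line at 1 FPKM, and Mitf and Dct reach farthest to the right.

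Within the 39 genes, melanocyte markers gave the highest sum of any lineage in each library. This came through Mitf in the first pair and through Mitf and Dct in the LacZ pair. Their sum was 44.8 FPKM in the cKO-labelled, 46.6 in the Het-labelled, 27.8 in LacZ+ and 27.1 in LacZ- cells. Mesenchymal markers summed to 3.51 and 6.92 FPKM in the first pair and 13.3 and 5.14 in the second, and leukocyte markers to 6.55 and 5.30, then 4.94 and 3.08. Without Mitf the melanocyte sums of the first pair were 1.61 and 2.65 FPKM, under the mesenchymal and leukocyte sums there. Endothelial markers stayed under 1 FPKM even as a sum, at 0.175 and 0.155, then 0.798 and 0.280 FPKM. Every one of these sums lay below the single gene Itga6 in its library. The sums add genes whose level per cell differs, so they give no share of cells, and the order depends on the genes chosen. In the further markers, mesenchymal genes summed to 180 to 569 FPKM, mainly through Sparc, and melanocyte genes to 0.872 to 2.48 FPKM.

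**Figure D2:**
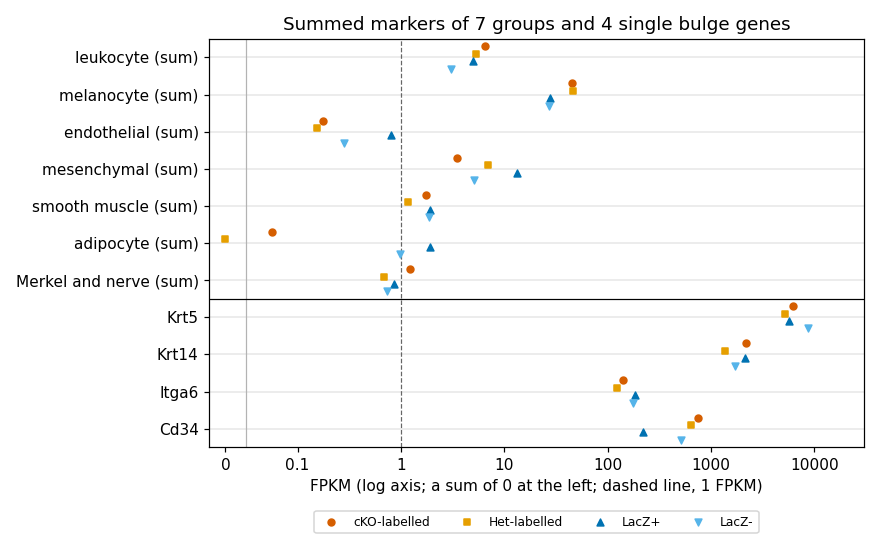
Summed FPKM of the markers of each lineage (upper rows) and FPKM of 4 single keratinocyte and bulge genes (lower rows) in the 4 libraries, on a log axis; each point is 1 library. The melanocyte sums of 27.1 to 46.6 FPKM are the highest of the lineages for these 39 genes, and all sums lie below Itga6.

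The melanocyte genes lay at separate levels. Melanocytes make pigment with 3 related enzymes, tyrosinase (Tyr), which catalyses the first and limiting step, tyrosinase-related protein 1 (Tyrp1) and dopachrome tautomerase (Dct). The transcription factor MITF is their best-known activator and binds a short element called the M-box. Dct is also transcribed in unpigmented melanoblasts. Whether the M-box core bears on the levels of the 3 enzyme genes was not tested. The bases upstream of these genes are shown because each window holds that core. They are 250 bases ending at the base before the RefSeq start, from build GRCm38.p6, written 5′ to 3′ on the strand of the gene, with TCATGTG or its reverse complement CACATGA in capitals. Dct lies at chr14:118052247-118052496 (minus strand), Tyrp1 at chr4:80833963-80834212 (plus strand) and Tyr at chr7:87493513-87493762 (minus strand).
Dct: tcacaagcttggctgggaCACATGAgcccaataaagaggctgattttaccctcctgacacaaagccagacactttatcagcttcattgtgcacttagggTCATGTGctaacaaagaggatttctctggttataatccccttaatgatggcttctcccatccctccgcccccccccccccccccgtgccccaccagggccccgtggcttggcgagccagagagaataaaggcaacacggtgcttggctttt
Tyrp1: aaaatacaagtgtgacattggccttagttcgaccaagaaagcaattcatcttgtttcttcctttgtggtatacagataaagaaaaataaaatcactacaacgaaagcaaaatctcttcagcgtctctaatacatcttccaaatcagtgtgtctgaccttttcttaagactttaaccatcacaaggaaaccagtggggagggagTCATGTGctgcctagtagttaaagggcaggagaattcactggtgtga
Tyr: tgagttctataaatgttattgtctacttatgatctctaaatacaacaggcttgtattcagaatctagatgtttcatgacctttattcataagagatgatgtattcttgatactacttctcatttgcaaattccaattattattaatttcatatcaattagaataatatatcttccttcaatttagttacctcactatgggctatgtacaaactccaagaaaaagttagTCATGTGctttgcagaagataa

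The match to TCATGTG lay 151 to 145 bases before the start in Dct, with a second match to CACATGA at 232 to 226, 47 to 41 bases before it in Tyrp1 and 22 to 16 bases before it in Tyr. Searched on both strands, the motif was in 1068 of 32851 promoter windows of this length (3.25%). Of the 39 markers 25 had at least 1 promoter in the RefSeq table, 29 windows in all, and 3 windows held the motif, those of Dct, Tyrp1 and Tyr. The 3 windows of Mitf, which starts from several alternative promoters, held none. A match is a description of the letters and not a binding site.

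Mitf (mm9 chr6:97757051-97971352) was the highest marker of the first pair, with 43.2 FPKM under the cKO label and 44.0 under the Het label. It stood at 9.41 FPKM in LacZ+ and 13.6 in LacZ- cells. The log2 difference was -0.02 in the first pair and -0.49 in the second, or -0.32 after subtracting -0.17, the median of all genes with at least 5 FPKM on both sides of the LacZ sort. In the first pair Mitf lay at percentile 92.2 and 92.9 of all symbols, a level near that of the cell adhesion gene Epcam (47.4 and 51.3 FPKM). A gene-level value does not say which Mitf promoter was used.

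Dct (mm9 chr14:118412013-118451468) stood at 0.871 FPKM under the cKO label, 1.92 under the Het label, 15.2 in LacZ+ and 12.5 in LacZ- cells. Both values of the LacZ pair were above both of the first pair, at percentiles 80.5 and 76.7 of all symbols against 55.6 and 59.3. The pairs differ in genotype, strain, sex, age, stage and table, which cannot be told apart here, and the tables may have been normalized separately. Within the pairs the log2 difference of Dct was -0.64 for cKO-labelled over Het-labelled and 0.27 for LacZ+ over LacZ-, both inside the 2-fold line.

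The other melanocyte genes stayed far below. Tyrp1 (mm9 chr4:80480026-80497623) stood at 0.430 and 0.452 FPKM in the cKO- and Het-labelled libraries, at 2.29 in LacZ+ and at 0.793 in LacZ- cells. Its log2 difference in the LacZ pair was 0.87, and 1.04 after centring on the pair's median. Tyr reached no more than 0.119 FPKM, in LacZ- cells, and is listed at 0 in the Het-labelled library. Mlana, which encodes a melanosome protein, stood at 0.102, 0.0489 and 0.245 FPKM and is listed at 0 in LacZ- cells. Sox10, a factor of the melanocyte and glial lineage that acts upstream of Mitf, stood at 0.122, 0.156, 0.269 and 0.103 FPKM in the cKO-labelled, Het-labelled, LacZ+ and LacZ- libraries. Kit, the receptor that migrating melanoblasts depend on, stood at 0.0688 in both libraries of the first pair, 0.239 in LacZ+ and 0.0787 in LacZ- cells.

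Mitf in all 4 libraries, and Dct in the LacZ pair, thus lay above the rest of the list. Without Mitf and Dct the remaining 5 genes summed to 0.734 and 0.726 FPKM in the first pair, 3.15 in LacZ+ and 1.09 in LacZ- cells. Of 7 further pigment cell genes, only Pmel, a fibril protein of the melanosome, reached 1 FPKM, with 1.71 in LacZ+ and 1.47 in LacZ- cells (0.698 and 0.829 in the first pair). It shares its interval with another gene. Oca2 and Gpr143, which encode melanosome membrane proteins, are listed at 0 in all 4 libraries.

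**Figure D3:**
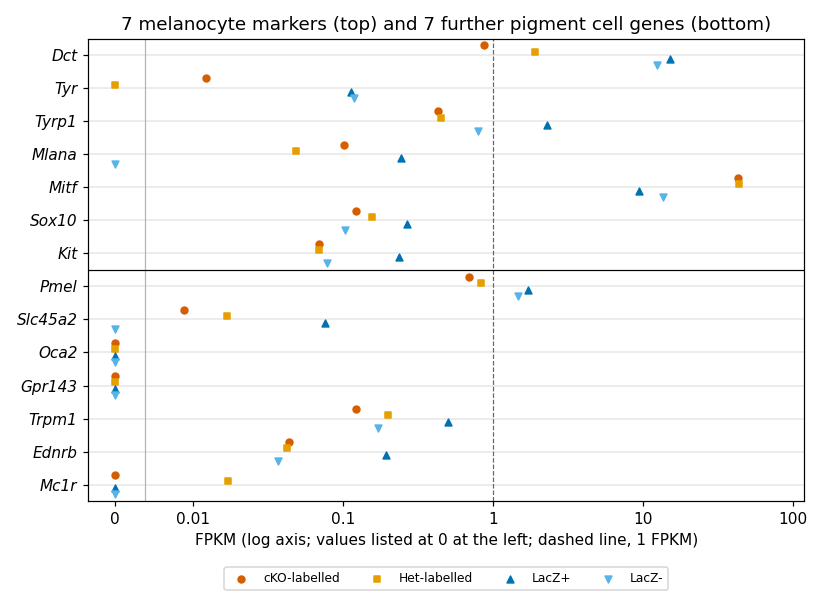
FPKM of the 7 melanocyte markers (above the line) and 7 further pigment cell genes (below it) in the 4 libraries, on a log axis with values listed at 0 at the left; each point is 1 library. Mitf is high in all libraries and Dct in the LacZ pair, while Tyr, Sox10 and Kit stay under 0.3 FPKM.

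Among leukocyte markers Cd68 and Cd52 alone reached 1 FPKM. Cd68 (mm9 chr11:69477714-69479655), a lysosomal glycoprotein used to mark macrophages, was at 5.20 FPKM under the cKO label, 2.39 under the Het label, 1.02 in LacZ+ and 1.90 in LacZ- cells. The log2 differences were 0.87 and -0.52. On the FPKM themselves the cKO-labelled library held 2.17 times the Het-labelled one. Cd52, which encodes a small glycoprotein of lymphocyte membranes, stood at 0.241 and 0.948 FPKM in the first pair, 1.76 in LacZ+ and 0.390 in LacZ- cells. Its log2 difference in the LacZ pair was 0.99, and 1.16 after centring; the table gives its interval to 2 genes, so reads of a neighbour can enter.

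The other 8 leukocyte markers stayed under 1 FPKM, the highest being Cd3g at 0.934 in LacZ+ cells. Ptprc, the CD45 phosphatase carried by leukocytes of every kind, stood at 0.0201, 0.0196, 0.0696 and 0.0253 FPKM in the cKO-labelled, Het-labelled, LacZ+ and LacZ- libraries. The macrophage receptor gene Csf1r reached at most 0.137 FPKM, in the cKO-labelled library, and Lyz2, the lysozyme of macrophages and neutrophils, reached at most 0.275; Lyz2 has a near-identical neighbour, so its value is uncertain. Cd207, the langerin gene of Langerhans cells, stood at 0.191 and 0.155 FPKM in the first pair, 0.301 in LacZ+ and 0.0462 in LacZ- cells. Of the CD3 chains of the T cell receptor complex, Cd3g stood at 0.934 FPKM in LacZ+ and 0.170 in LacZ- cells, and Cd3e at 0.210 and 0.183. In the first pair Cd3g is listed at 0 in the cKO-labelled library and stood at 0.203 in the Het-labelled one, with Cd3e at 0.0594 and 0.133. The signalling adaptors Tyrobp (0.223 to 0.336 FPKM) and Fcer1g (listed at 0 in LacZ- cells, up to 0.820 in the Het-labelled library) complete the list. Of 12 further leukocyte genes Coro1a, an actin-binding protein abundant in leukocytes, alone reached 1 FPKM, with 4.71 and 4.33 in the first pair, against 0.370 and 0.807 in LacZ+ and LacZ- cells.

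All 5 endothelial markers stayed under 0.3 FPKM in every library. In LacZ+ cells they ranged from 0.0747 FPKM for Kdr, the main receptor for vascular endothelial growth factor, to 0.278 for Vwf, the von Willebrand factor gene. In LacZ- cells they ranged from 0.0198 for Emcn, a sialomucin of venous and capillary endothelium, to 0.141 for the adhesion molecule gene Pecam1. All 5 were higher in LacZ+ cells, as were 57.2% of all symbols above 0 in either LacZ library and under 1 FPKM in both. In the first pair Emcn is listed at 0 in both libraries and Cdh5, the endothelial cadherin, in the cKO-labelled one. Pecam1, whose interval another gene shares, was at 0.120 FPKM in both. Of 10 further endothelial genes Egfl7, a secreted vessel protein, reached 1 FPKM in all 4 libraries (2.40 to 5.39), in an interval shared by 5 genes, and the other 9 stayed under it.

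On the scale of (FPKM + 1), both markers that were 2-fold apart in the LacZ pair belong to the mesenchymal group. On the FPKM themselves Cd52 (4.52 times) and Tyrp1 (2.89 times) were also more than 2-fold higher in LacZ+ cells. Both reached the minimum only through those cells. Vim (mm9 chr2:13495553-13504453), the intermediate filament of mesenchymal cells and also of melanocytes and Langerhans cells, stood at 6.12 FPKM in LacZ+ and 1.82 in LacZ- cells, a log2 difference of 1.34. Dcn (mm9 chr10:96942244-96980777), the collagen-binding proteoglycan decorin of dermal fibroblasts, stood at 2.16 and 0.423 FPKM, a log2 difference of 1.15. Thy1 (mm9 chr9:43851466-43856662), a surface protein of fibroblasts and T cells, stood at 4.99 and 2.78 FPKM, a log2 difference of 0.67. Dcn reached the minimum only through LacZ+ cells, and of the 3 markers under 1 FPKM in this pair Pdgfrb was higher there and Pdgfra and Lum were lower.

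The first pair showed the opposite order for Vim and Thy1. Vim was lower under the cKO label (1.05 FPKM) than under the Het label (3.05 FPKM), a log2 difference of -0.98, and of -1.05 after subtracting the pair's median of 0.07. Thy1 stood at 2.14 and 3.61 FPKM, a log2 difference of -0.55. Dcn was at 0.102 and 0.0445 FPKM, under the minimum.

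The other 3 mesenchymal markers stayed under 1 FPKM. Pdgfra, a growth factor receptor of dermal fibroblasts, stood at 0.187 and 0.204 FPKM in the first pair and at 0.0196 and 0.0210 in the LacZ pair. Pdgfrb, the receptor of pericytes, reached at most 0.0287 FPKM, and Lum, the proteoglycan lumican, at most 0.0830. In LacZ+ cells Lum is listed at 0 beside Dcn at 2.16 FPKM. Of 9 further mesenchymal genes 3 reached 1 FPKM, all of them in all 4 libraries. These were Sparc, which encodes a secreted matrix glycoprotein (546, 294, 170 and 378 FPKM in the cKO-labelled, Het-labelled, LacZ+ and LacZ- libraries), Col1a1 (10.3, 3.72, 6.29 and 13.1) and Col1a2 (12.5, 10.8, 2.38 and 4.34), the chains of type I collagen. All 3 were lower in LacZ+ than in LacZ- cells, opposite to Vim and Dcn, and Col3a1, the fibrillar collagen gene that fibroblasts express beside them, did not pass 0.131 FPKM. Col1a1 lies in an interval of 2 genes.

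Of the smooth muscle markers Tagln alone reached 1 FPKM. Tagln, an actin-binding protein of smooth muscle, stood at 1.38, 1.08, 1.63 and 1.70 FPKM in the cKO-labelled, Het-labelled, LacZ+ and LacZ- libraries, in an interval that 6 genes share. Acta2, smooth muscle actin, reached 0.372 FPKM in the cKO-labelled library and 0.0758 to 0.251 in the others; its coding sequence is close to that of other actins, so the value is uncertain. Des, the muscle intermediate filament gene, did not pass 0.0289 FPKM. Of 7 further smooth muscle and pericyte genes Cspg4, the NG2 proteoglycan, reached 1 FPKM, at 43.1, 41.1, 23.1 and 33.7, and the other 6 stayed under it.

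Fabp4 (mm9 chr3:10204346-10208576), a fatty acid carrier of adipocytes that capillary endothelium and macrophages also make, is listed at 0 in both libraries of the first pair. It stood at 1.89 FPKM in LacZ+ and 0.988 in LacZ- cells, a log2 difference of 0.54. Adipoq, the adipokine gene specific to adipocytes, did not pass 0.0562 FPKM and is listed at 0 in the Het-labelled and LacZ- libraries. Of 5 further adipocyte genes Lipe, the hormone-sensitive lipase gene, reached 1 FPKM (2.90 to 4.34 over the 4 libraries, in an interval of 2 genes).

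Of the Merkel cell genes the 3 transcription factors Atoh1, Isl1 and Sox2 are listed at 0 in all 4 libraries. Atoh1 is required for Merkel cells to form. The table gives the interval of Sox2 to 7 genes. Krt8, a simple-epithelium keratin of Merkel cells, stood at 1.18, 0.645, 0.810 and 0.588 FPKM in the cKO-labelled, Het-labelled, LacZ+ and LacZ- libraries. Its partner Krt18 stood at 0.0265, 0.0255, 0.0382 and 0.149 FPKM, and Krt20, the Merkel cell keratin, at 0.0103, 0.0199 and 0.0100 with LacZ- cells listed at 0. The ratio of Het-labelled to cKO-labelled Krt20 was 1.94. Among rows under 0.05 FPKM in both libraries the most frequent ratio was 0.969, so Krt20 stood at 2 times that step, as 2 fragments against 1 would give. Further Merkel cell, nerve and Schwann cell genes at 5 FPKM or more in any library were Erbb3 and Ngfr. Erbb3, a neuregulin receptor of Schwann cells and of many epithelia, stood at 11.8, 15.0, 24.7 and 14.3 FPKM, and Ngfr, the low-affinity neurotrophin receptor, at 0.133, 2.21, 9.63 and 7.81.

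Hba-a1, the α-globin gene of red cells, was read as a marker of blood. It stood at 3.83 and 4.92 FPKM in the first pair and at 20.4 and 19.2 in LacZ+ and LacZ- cells. A near-identical copy makes its value uncertain. Hbb-b1 is listed at 0 in 3 libraries and stood at 0.0700 in LacZ- cells.

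In the first pair the count of 2-fold markers depended on the pseudocount. Of the 39 genes 7 reached the minimum of 1 FPKM and 0 differed by 2-fold, where 4.09% of the 13014 genes measured did. With so few genes measured, that share gives no result about the markers. On the FPKM themselves 3 of the 7 were more than 2-fold apart, and a pseudocount of 0.1 counts these 3. They were Cd68 (2.17 times higher under the cKO label), Dct (2.21 times higher under the Het label) and Vim (2.90 times higher under the Het label). The share of all genes past 2-fold on these scales was not computed, so the 3 give no result about the markers. Dct reached the minimum only through the Het-labelled library, and Krt8 only through the cKO-labelled one, so their directions were fixed. After centring, Vim alone was past the line, beside 4.13% of all genes. Of the 34 markers above 0 in either library 18 had more in the cKO-labelled library and 16 less, where 57.2% of all such symbols had more. Under 1 FPKM in both, 15 of 27 markers had more, beside 50.4% of such symbols. Of the 66 further markers 13 reached the minimum, 1 was 2-fold higher (Col1a1, 1.26) and 1 was 2-fold lower (Ngfr, -1.50).

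In the LacZ pair 10 of the 39 genes reached the minimum and 2 were 2-fold higher in LacZ+ cells, Vim and Dcn, where 4.67% of the 13283 genes measured were. After centring these were joined by Cd52 (1.16) and Tyrp1 (1.04), beside 6.05% of all genes. None of the 10 was 2-fold lower, beside 2.6% of all genes. Cd52, Tyrp1, Dcn and Fabp4 reached the minimum only through LacZ+ cells and so had to be higher there, and the count is not evidence of a direction for the list.

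Without any minimum, 36 of the 39 genes were above 0 in either LacZ library, and 27 were higher in LacZ+ cells and 9 lower. The share of all symbols higher there was 43.7%. Among genes above 0 in either and under 1 FPKM in both, 20 of 26 markers were higher in LacZ+ cells, and so were 57.2% of all such symbols and 32 of 49 further markers. The markers that were lower in LacZ+ cells included Mitf and Cd68, named above with their values. Of the 66 further markers 12 reached the minimum, 0 were 2-fold higher and 1, Sparc, was 2-fold lower (-1.15, or -0.98 after centring).

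**Figure D4:**
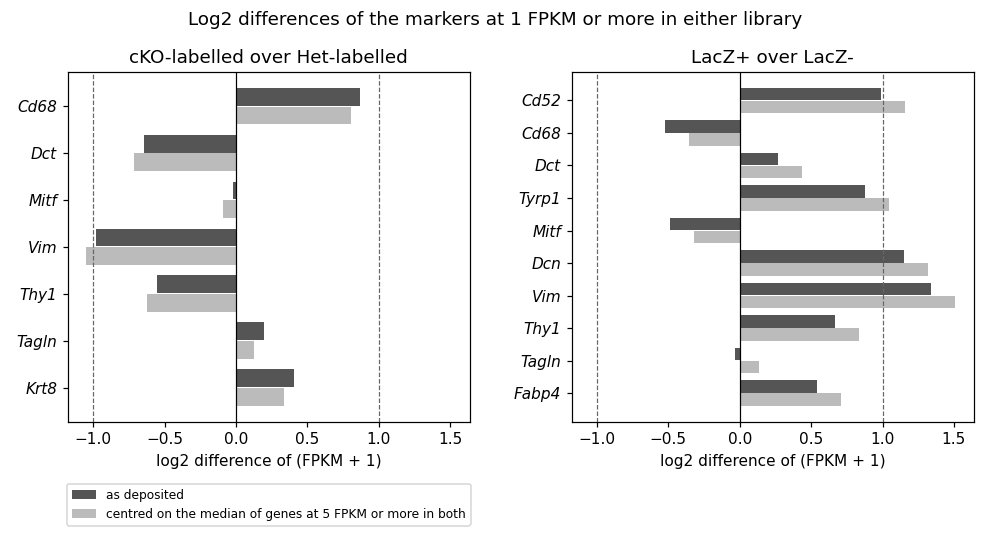
Log2 differences of (FPKM + 1) for the markers at 1 FPKM or more in either library, cKO-labelled over Het-labelled on the left and LacZ+ over LacZ- on the right; dark bars are the values as deposited, light bars the values centred on the median of genes with at least 5 FPKM on both sides, and dashed lines mark 2-fold. Vim and Dcn pass the line on the right before centring, and Cd52 and Tyrp1 after it.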

How the data were processed

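RNA was measured in 4 libraries of sorted mouse hair follicle stem cells, 1 per group, grouped by the sample labels. The 4 samples of chromatin immunoprecipitation were not used here. The authors deposited FPKM in 2 gene tables of 32091 rows, per the file headers, and in the first table also a log2 fold change, which was not used. Cufflinks 2.1.1, TopHat, TopHat2 2.0.4 and the builds mm9 and GRCm38 stand in the submitters' processing notes without roles. Strand and multi-read handling, not given in the sources used here, can shift values of overlapping genes. Coordinates of the tables are taken as mm9, since genes end as far as 152509964 on chromosome 7, where GRCm38 genes stop at 145324059.

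Rows of a symbol were summed with pandas 2.3.3 under Python 3.11.15, after 25 symbols turned into dates were restored through Ensembl identifiers. FPKM divide by a library total, and mt-Ts1 took 20.6% to 28.1% of the summed FPKM. Absolute depth is unknown, so no interval was computed. Rows above 0 and under 0.05 FPKM in both libraries of a table numbered 1168 in the first pair and 954 in the second. With the most extreme ratios left out, 60.7% and 33.4% lay within 0.05 (log2) of a small whole-number ratio times the most frequent one (1.03 and 0.927). The share expected without steps was not computed, so these shares are a description only. Log2 differences used a pseudocount of 1 and a minimum of 1 FPKM in either library. The calculation was checked on simulated large changes in well-expressed genes only, which says nothing about calls near 1 FPKM. Members, lists and the motif were chosen with earlier results of these data known. Markers reaching 1 FPKM in any library were named with all values, and further markers at 5 FPKM; those named below that, and most below 1 FPKM, were chosen after their values were seen. Piezo2 was found under an older symbol, and some further markers are not reported here. Alternatives were other pseudocounts, minimums and scalings, the highest row per symbol and genes alone in their interval. The rescaling for the differences was chosen after seeing the data.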

Additional observations from a re-analysis of the deposited data

How the results depend on the processing

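No paired analysis was possible because each group has 1 library. In the cKO-labelled against Het-labelled comparison the count of 2-fold markers, 0 as reported, was 3 with a pseudocount of 0.1 (Cd68, Dct and Vim), 1 after centring and 1 after rescaling the libraries without mitochondrial and small RNA features (Vim each time). In the LacZ pair the count of 2 became 4 with a pseudocount of 0.1, 4 after centring and 4 after rescaling (Cd52, Dcn, Tyrp1 and Vim), 0 with a pseudocount of 5 and 1 with a minimum of 5 FPKM (Vim). The pseudocount decides these calls by construction, since most markers lie near or under 1 FPKM. The shares of all genes called were computed only for the main setting and after centring, so the other counts have no background beside them. With genes alone in their interval only, 1 smooth muscle gene (Acta2) was left, and the sums were 0.372, 0.0758, 0.251 and 0.179 FPKM in the cKO-labelled, Het-labelled, LacZ+ and LacZ- libraries. Endothelial sums without Pecam1 were 0.0549, 0.0355 and 0.139 FPKM in the cKO-labelled, Het-labelled and LacZ- libraries, and the leukocyte sum of LacZ+ cells was 3.12 FPKM without Cd52 and Csf1r. Of the 128 alternative values of counts, medians and sums, 112 stayed within 1.5 times (medians within the log2 of 1.5) and the 16 others are given here. Many of the 112 could not move. Every marker has 1 row, so taking the highest row per symbol changed nothing. Rescaling multiplied each sum by 0.893 to 1.09, which cannot pass 1.5 times. Melanocyte, mesenchymal and adipocyte markers all lie alone in their intervals. The LacZ median of measured markers, 0.60, was 0.07 without a minimum. The first pair's median, -0.02, was 0.42 with a minimum of 5 FPKM, where 2 markers were left. No called difference of a single marker changed sign; Tagln, not called, went from -0.04 to 0.13 after centring and 0.14 after rescaling in the LacZ pair.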
